A study of Mus musculus with 6 samples.

Results

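The genes described here are 9 interferon response and MHC class I genes, *Isg15*, *Ifit1*, *Ifit3*, *Stat2*, *Irf7*, *Irf9*, *Bst2*, *Ifitm3* and *B2m*, chosen by name out of 50508 gene symbols listed in each library. They were measured by 3′ end RNA sequencing (QuantSeq, which reads the end of polyadenylated transcripts) in primary mouse neurons, with 3 libraries per group. One group, sgKcna1 in the labels, received the activator Kcna1-dCas9A, in which a guide to the *Kcna1* promoter brings dCas9, a Cas9 that does not cut, fused to the transcriptional activator VP160. The other group, sgLacZ in the labels, received Ctrl-dCas9A, the same activator with a guide to the bacterial gene LacZ. The comparison asks whether the guide to *Kcna1* went along with a different level of interferon response transcripts in these cultures. Neurons of both groups came from C57Bl/6J pups at postnatal day 0, were transduced with lentivirus after 1 day in vitro and, as described, differed in the guide. The methods place the RNA for sequencing at 10 days in vitro in one passage and at 14 to 16 days after transduction in another. They describe the cultures as cortical, while the labels describe them as hippocampal. The Ef1alpha promoter that drives dCas9-VP160 is not restricted to neurons, and no untransduced culture was analysed here, so the values compare 2 transduced groups and give no level without virus.

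Cells that sense foreign nucleic acid release type I interferon, which binds the receptor IFNAR on the same or neighbouring cells. Through the kinases JAK1 and TYK2 the receptor activates STAT2 and other factors, which join IRF9 to form ISGF3, and this complex binds the interferon-stimulated response element (ISRE) in the promoters of antiviral genes. Interferon gamma acts at another element, the gamma-activated site (GAS). Class I MHC molecules, made of a heavy chain and beta-2-microglobulin, show peptides at the cell surface, are raised by interferon, and in neurons are also known for roles at synapses.

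The ISRE was searched in the promoters of the 9 genes because it is the sequence through which most of them are known to be induced. The letters searched were GAAA, any 2 bases and GAAA, on both strands, within 250 bases before and 50 bases after each RefSeq transcription start of GRCm38.p6. Matches were found for 7 of the 9 genes, all but *Irf7* and *Irf9*, against 3.99% of 27025 genes with such a window. The matched letters are in capitals below, with 8 flanking bases on each side, written 5′ to 3′ in the direction of the gene, so that a match on the opposite strand reads TTTC, 2 bases and TTTC.
Isg15, chr4:156200867-156200904, minus strand, 3 overlapping matches: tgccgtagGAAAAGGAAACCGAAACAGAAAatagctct
Bst2, chr8:71537579-71537610, minus strand, 2 overlapping matches: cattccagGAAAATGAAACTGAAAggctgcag
Ifit1, chr19:34640777-34640802, plus strand: ggcttcagTTTCACTTTCcagtctca
Ifit1, chr19:34640796-34640821, plus strand: agtctcagTTTCAGTTTCtcactgct
Ifit3, chr19:34583365-34583390, plus strand: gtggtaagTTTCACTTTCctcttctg
Ifit3, chr19:34583399-34583424, plus strand: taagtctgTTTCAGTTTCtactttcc
Stat2, chr10:128270268-128270293, plus strand: caccctggTTTCAGTTTCctttccct
Ifitm3, chr7:141010725-141010750, minus strand: aaattcagGAAAAGGAAActtctgag
Ifitm3, chr7:141010708-141010733, minus strand: acttctgaGAAACCGAAActgccgca
B2m, chr2:122147540-122147565, plus strand: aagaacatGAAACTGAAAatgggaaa

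The matches of *Ifitm3* lie from 3 to 29 bases after its start, inside the transcribed sequence, and those of the other 6 genes lie before the start, between 57 and 222 bases away. *Ifit1*, *Ifit3* and *Stat2* share the stretch TTTCAGTTTC, which is the reverse complement of the match in *B2m* and of 1 of the matches in *Bst2*. The palindromic GAS letters TTCNNNGAA were found for *Bst2* and *Ifitm3*, in both cases overlapping an ISRE match, against 9.55% of all genes. Among 68 of the 86 interferon-stimulated genes described further below that had a window, 38 held the ISRE letters, and among 8 neuron markers with a window 0 did. A match describes the letters of a window and was not tested for binding.

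**Figure D1:**
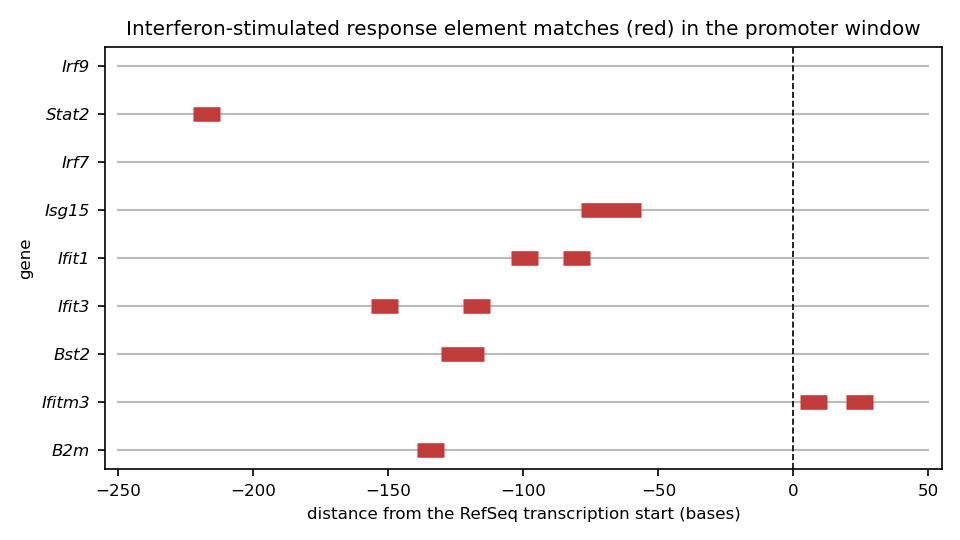
Position of each match to the ISRE letters (boxes) along the window from 250 bases before to 50 bases after the transcription start of the 9 genes, in bases from the start. The matches of 6 genes lie before the start, those of *Ifitm3* just after it, and *Irf7* and *Irf9* have none.

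The values are whole numbers that sum to between 999047 and 999717 per library and were read as scores scaled to a common total and rounded by the authors, so the reads behind them are not known and a value of 1 or 2 is coarse. *Kcna1* was 16 in all 3 Ctrl-dCas9A libraries and 68, 47 and 65 in Kcna1-dCas9A libraries 1, 2 and 3, as the labels imply. Over all genes, 226 of the 19504 that were above 0 in at least 1 library, or 1.16%, passed limma's test at an adjusted p of 0.05, and 23.2% had an unadjusted p under 0.05. No gene passed when any 1 library other than Ctrl-dCas9A replicate 3 was left out, and 2711 passed without that library, so every call named here rests on all 3 Kcna1-dCas9A libraries and on Ctrl-dCas9A replicates 1 and 2. The groups did not overlap for 22.2% of the tested genes. The methods speak of independent repetitions for the study in general, and the sources used here do not say of these libraries that the 3 of a group came from separate cultures, so p-values measure the spread between these libraries, which may be technical.

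None of the 9 genes passed the test, with 0 higher in Kcna1-dCas9A against 0.349% of all genes and 0 lower against 0.81%, 1.16% in all. At an unadjusted p under 0.05 there were 2, *Isg15* and *B2m*, both lower in Kcna1-dCas9A, against 23.2% of all genes. *Isg15* was the 1 gene whose groups did not overlap, with all 3 Kcna1-dCas9A libraries below the Ctrl-dCas9A libraries, an order that 13.3% of all tested genes had. The 3 transcription factors, by contrast, had mean levels slightly above those of Ctrl-dCas9A, within the spread between libraries. The median log2 fold change of the 9 genes was 0.07, against -0.02 over all genes tested. It was 0.17 without Ctrl-dCas9A replicate 1, -0.08 without Ctrl-dCas9A replicate 3, -0.16 without Kcna1-dCas9A replicate 1 and 0.11 without Kcna1-dCas9A replicate 2, so its sign rests on single libraries. Their summed value was 233, 207 and 180 in Ctrl-dCas9A libraries 1 to 3 and 209, 162 and 199 in Kcna1-dCas9A, so the sums overlapped.

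**Figure D2:**
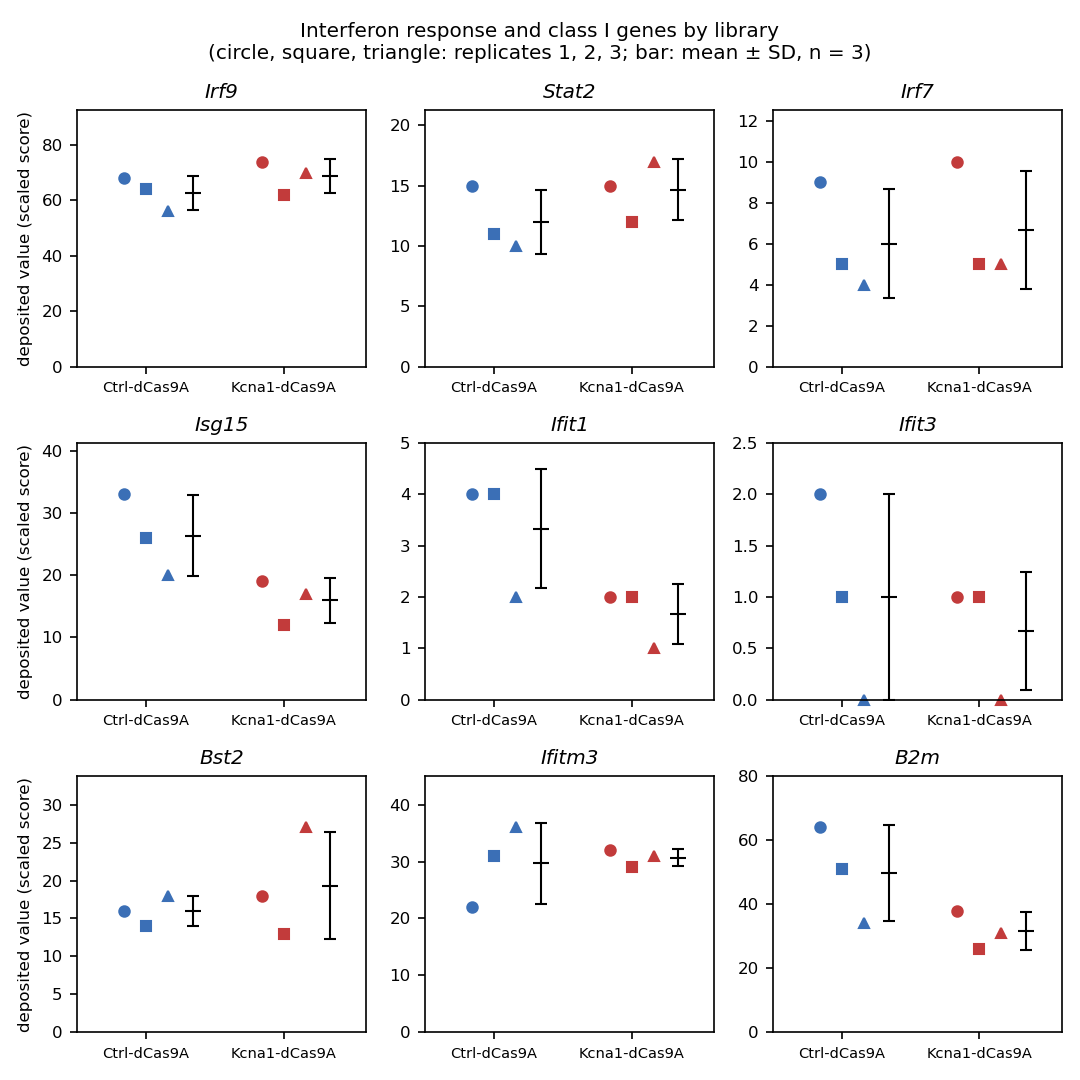
Scaled score of each of the 9 genes in the 3 Ctrl-dCas9A and 3 Kcna1-dCas9A libraries (points), with the mean (line) and SD (bar) of each group; each panel has its own linear axis from 0. The groups stand apart for *Isg15* alone, with 20 to 33 in Ctrl-dCas9A and 12 to 19 in Kcna1-dCas9A.

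The 3 members of the signalling apparatus were detected in every library. *Irf9*, the DNA-binding subunit of ISGF3, had the highest mean level of the 9 genes in both groups, with 68, 64 and 56 in Ctrl-dCas9A libraries 1 to 3 and 74, 62 and 70 in Kcna1-dCas9A. The estimated log2 fold change, Kcna1-dCas9A minus Ctrl-dCas9A on the log2(value + 1) scale as throughout, was 0.13 (SE 0.12, limma adjusted p = 0.513), and the groups overlapped between 62 and 68. *Irf9* overlaps *Rnf31* on the same strand in GENCODE, so reads of the pair may not be separable.

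*Stat2*, its partner in ISGF3, was 15, 11 and 10 in Ctrl-dCas9A, against 15, 12 and 17 with the *Kcna1* guide. The log2 fold change was 0.28 (SE 0.21, limma adjusted p = 0.510), with a 95% interval from -0.23 to 0.78. Library 1 of both groups had the same value, so the groups overlapped. *Irf7*, the factor that amplifies the transcription of interferon alpha genes and is itself strongly induced by interferon, was low, with 9, 5 and 4 in Ctrl-dCas9A and 10, 5 and 5 in Kcna1-dCas9A. The estimated log2 fold change was 0.13 (SE 0.36, limma adjusted p = 0.833), and it turned to -0.08 without Ctrl-dCas9A replicate 3 and to -0.16 without Kcna1-dCas9A replicate 1. *Irf7* overlaps *Phrf1* on the opposite strand, and the sources used here do not say whether strand was used in counting.

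Of the cytosolic effectors, *Isg15* was the most abundant. It encodes a ubiquitin-like protein that is coupled to other proteins during an interferon response. *Isg15* was 33, 26 and 20 in Ctrl-dCas9A libraries 1 to 3 (26.3 ± 6.51, SD, n = 3) and 19, 12 and 17 in Kcna1-dCas9A (mean 16, SD 3.61, n = 3). The highest Kcna1-dCas9A library was 1 below the lowest Ctrl-dCas9A library, so the gap between groups was smaller than the spread within either. The log2 fold change was -0.68 (SE 0.24, 95% interval -1.25 to -0.12). It had an unadjusted limma p of 0.0246 and an adjusted p of 0.144, and an exact two-sided permutation test gave p = 0.1, the smallest that 3 against 3 libraries allow. Among the 8050 genes with a mean of at least 10, a filter chosen after seeing the data, fitted alone, the limma adjusted p of *Isg15* was 0.0377, where 28.4% of the genes passed. In that set 15.9% of genes had all Kcna1-dCas9A libraries above Ctrl-dCas9A and 23.9% had them all below.

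*Ifit1* and *Ifit3* encode proteins with tetratricopeptide repeats, and IFIT1 binds viral RNA that lacks the cap methylation of the host. *Ifit1* was 4, 4 and 2 in Ctrl-dCas9A and 2, 2 and 1 in Kcna1-dCas9A, with the groups meeting at 2. The log2 fold change was -0.69 (SE 0.33, 95% interval -1.46 to 0.08), nearly the size of that of *Isg15*, and the limma adjusted p was 0.265. *Ifit3* was 2, 1 and 0 in Ctrl-dCas9A and 1, 1 and 0 in Kcna1-dCas9A, too low for any difference to be read from rounded values.

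*Ifit3* also has a close copy, *Ifit3b*, with which it shared 19.1% of the 50-base stretches in the last 400 bases of its transcripts, so reads could be split between the pair. *Ifit3b* was 1, 0 and 1 in Ctrl-dCas9A and 2 in all 3 Kcna1-dCas9A libraries, with a limma adjusted p of 0.164. The sum of the pair was 3, 1 and 1 in Ctrl-dCas9A and 3, 3 and 2 in Kcna1-dCas9A, and these sums overlapped.

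Both membrane effectors were present at moderate levels and did not separate the groups. *Bst2*, which encodes tetherin, a protein that holds budding enveloped viruses at the cell surface, was 16, 14 and 18 in Ctrl-dCas9A and 18, 13 and 27 in Kcna1-dCas9A. Kcna1-dCas9A held both the lowest and the highest of the 6 values, and the log2 fold change of 0.21 (SE 0.26, limma adjusted p = 0.605) turned to -0.05 without Kcna1-dCas9A replicate 3. *Ifitm3*, which encodes a membrane protein that hinders the fusion of incoming viruses, was 22, 31 and 36 in Ctrl-dCas9A and 32, 29 and 31 in Kcna1-dCas9A. The 3 Kcna1-dCas9A libraries lay inside the Ctrl-dCas9A range, and the log2 fold change was 0.07 (SE 0.19, limma adjusted p = 0.830, 95% interval -0.37 to 0.52). It turned to -0.12 without Ctrl-dCas9A replicate 1. *Ifitm3* shared 12.3% of its end stretches with *Ifitm1* and *Gm7676*, and *Ifitm1* was listed at 0 in every library.

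*B2m*, the light chain of every class I MHC molecule, was 64, 51 and 34 in Ctrl-dCas9A (49.7 ± 15.0, SD, n = 3) and 38, 26 and 31 in Kcna1-dCas9A (31.7 ± 6.03, SD, n = 3). The groups overlapped only through Ctrl-dCas9A replicate 3 at 34 and Kcna1-dCas9A replicate 1 at 38. The log2 fold change was -0.60 (SE 0.25, 95% interval -1.19 to -0.02), with an unadjusted limma p of 0.0454 and an adjusted p of 0.201. An exact two-sided permutation test gave p = 0.2. Among genes with a mean of at least 10, where 28.4% passed, the limma adjusted p was 0.0467. *B2m* overlaps *Patl2* on the opposite strand.

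**Figure D3:**
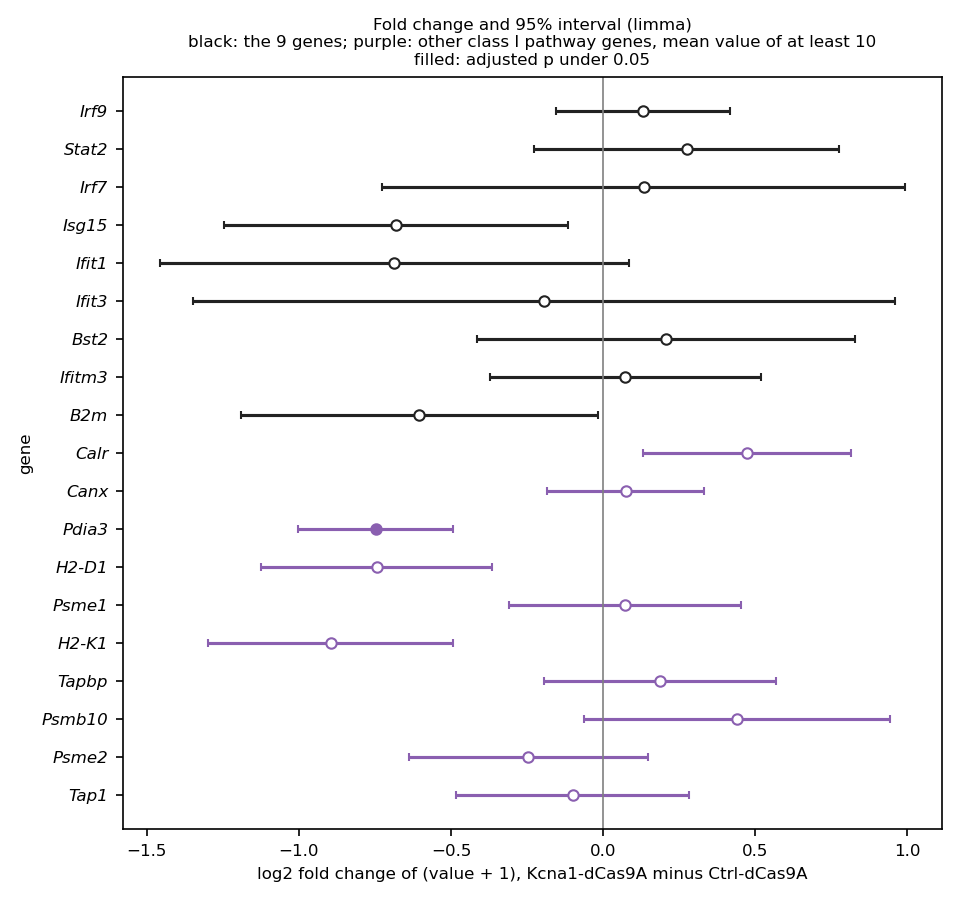
Log2 fold change (Kcna1-dCas9A minus Ctrl-dCas9A, on log2(value + 1)) with its 95% interval from limma. Black points are the 9 genes, purple points other class I pathway genes with a mean of at least 10. Filled points had a limma adjusted p under 0.05, and the line marks 0. Among the 9 genes, the intervals of *Isg15* and *B2m* lie below 0 and the other 7 include it. None of the 9 passed after adjustment over 19504 genes.

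The spread within a group followed the library. Ctrl-dCas9A replicate 1 was strictly the highest of its group for 6 of the 9 genes and Ctrl-dCas9A replicate 3 the lowest for 7. In the other group, Kcna1-dCas9A replicate 1 was the highest for 5 and replicate 2 the lowest for 6. These counts were the same after median-of-ratios scaling, whose factors ran from 0.947 to 1.06. *Ifitm3* and *Bst2* departed from the order, with replicate 3 the highest of the Ctrl-dCas9A libraries.

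Over the 6 libraries, which share their groups, *Isg15* and *B2m* had a Pearson's r of 0.973 and *Stat2* and *Irf9* one of 0.877 on the log2 scale. *Ifitm3* went the other way, with an r of -0.483 to *Isg15* and of -0.603 to *B2m*. Genes with an r over 0.9 were counted for the 6 of the 9 genes with a mean of at least 10. Of the 8050 genes at that mean, 533 had such an r to *Isg15* and 520 to *B2m*. The counts were 48 for *Stat2*, 47 for *Bst2*, 49 for *Ifitm3* and 27 for *Irf9*. The genes most like *Isg15* were *Snrpf* (0.992), *Mfap2* (0.991) and *Rfxap* (0.991). Those most like *B2m* were *Igf1r* (0.996), *Ugcg* (0.994) and *Cuedc1* (0.994). The most like *Stat2* was *Gpr22* (0.995), the most like *Irf9* was *Ndufaf3* (0.970), the most like *Bst2* was *Lnpk* (0.997) and the most like *Ifitm3* was *Cenpf* (0.993).

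*B2m* was next set beside the other genes of class I antigen presentation. A list of 29 genes held *B2m* itself, heavy chains, peptide transporters, immunoproteasome subunits and chaperones. Of the 29, 28 were listed and 22 were above 0 in at least 1 library. Of these, 0 were higher and 1 was lower after adjustment, against 0.349% and 0.81% of all genes. Their median log2 fold change was -0.29 against -0.02 over all genes, but -0.10 against -0.06 among genes with a mean of at least 10, and -0.14 without Ctrl-dCas9A replicate 2. The groups did not overlap for 5 lower genes and 1 higher gene, where 13.3% and 8.98% of all tested genes did so. Of 13 heavy chain genes listed, 6 were at 0 in every library, all of them of the H2-Q and H2-T series.

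The 2 classical heavy chains, which present peptides to cytotoxic T cells, were both lower in every Kcna1-dCas9A library than in any Ctrl-dCas9A library, and neither passed the test. Among genes with a mean of at least 10, 23.9% had that order, as did 3 of the 11 such genes of the list. *H2-K1* was 80, 83 and 55 in Ctrl-dCas9A (72.7 ± 15.4, SD, n = 3) and 36, 39 and 39 in Kcna1-dCas9A (38.0 ± 1.73, SD, n = 3). The estimated log2 fold change was -0.90 (SE 0.17, 95% interval -1.30 to -0.49, limma adjusted p = 0.0541). *H2-D1* was 109, 94 and 94 in Ctrl-dCas9A (99.0 ± 8.66, SD, n = 3) and 72, 58 and 48 in Kcna1-dCas9A (59.3 ± 12.1, SD, n = 3). The estimated log2 fold change was -0.74 (SE 0.16, limma adjusted p = 0.0556). Their summed value was 189, 177 and 149 in Ctrl-dCas9A and 108, 97 and 87 in Kcna1-dCas9A. The gap between groups, from 108 to 149, thus exceeded the range of the second group. *H2-D1* shared 12.3% of its end stretches with other genes, *H2-K1* among them, so its reads may not be fully separable. *H2-K1* passed in 5 and *H2-D1* in 3 of 12 alternative settings, with limma adjusted p between 0.00247 and 0.169 and between 0.00414 and 0.200. The lowest values came from genes with a mean of at least 10, a filter chosen after seeing the data. There 28.4% of the genes passed. Both also passed with a mean of at least 1 and after median-of-ratios scaling, where 1543 and 1721 genes passed. Without Ctrl-dCas9A replicate 3, where 2711 genes passed, the limma adjusted p of *H2-K1* was 0.0174. The promoter windows of both genes held neither the ISRE nor the GAS letters searched above.

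The genes of the peptide-loading complex did not move together. *Pdia3*, a disulfide isomerase of the endoplasmic reticulum that takes part in class I folding, fell, from 234, 230 and 190 in Ctrl-dCas9A to 127, 125 and 135 in Kcna1-dCas9A. The estimated log2 fold change was -0.75 (SE 0.11, limma adjusted p = 0.0486). With 1 library left out its adjusted p ran from 0.0174, without Ctrl-dCas9A replicate 3, to 0.143, and the limma adjusted p was 0.0861 without the intensity trend and 0.111 with the replicate block. *Calr*, a calcium-binding chaperone of the same complex, was 672, 703 and 962 in Ctrl-dCas9A and 1029, 1112 and 1065 in Kcna1-dCas9A, without overlap. The log2 fold change of *Calr* was 0.47 (SE 0.14, limma adjusted p = 0.107). Both chaperones fold many other glycoproteins. *Tap1*, a subunit of the peptide transporter, was 12, 15 and 14 against 14, 12 and 12, and *Tapbp*, which bridges transporter and heavy chain, was 45, 42 and 40 against 42, 44 and 61.

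Of the immunoproteasome subunits, which interferon gamma induces, *Psmb10* had a mean above that of Ctrl-dCas9A and *Psmb9* one below. *Psmb10* was 21, 26 and 35 in Ctrl-dCas9A and 35, 32 and 44 in Kcna1-dCas9A (limma adjusted p = 0.267). *Psmb9* was 3, 4 and 4 against 2, 1 and 1 (limma adjusted p = 0.0852). *Nlrc5*, the transactivator of class I genes, was at 0 to 2 in every library.

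**Figure D4:**
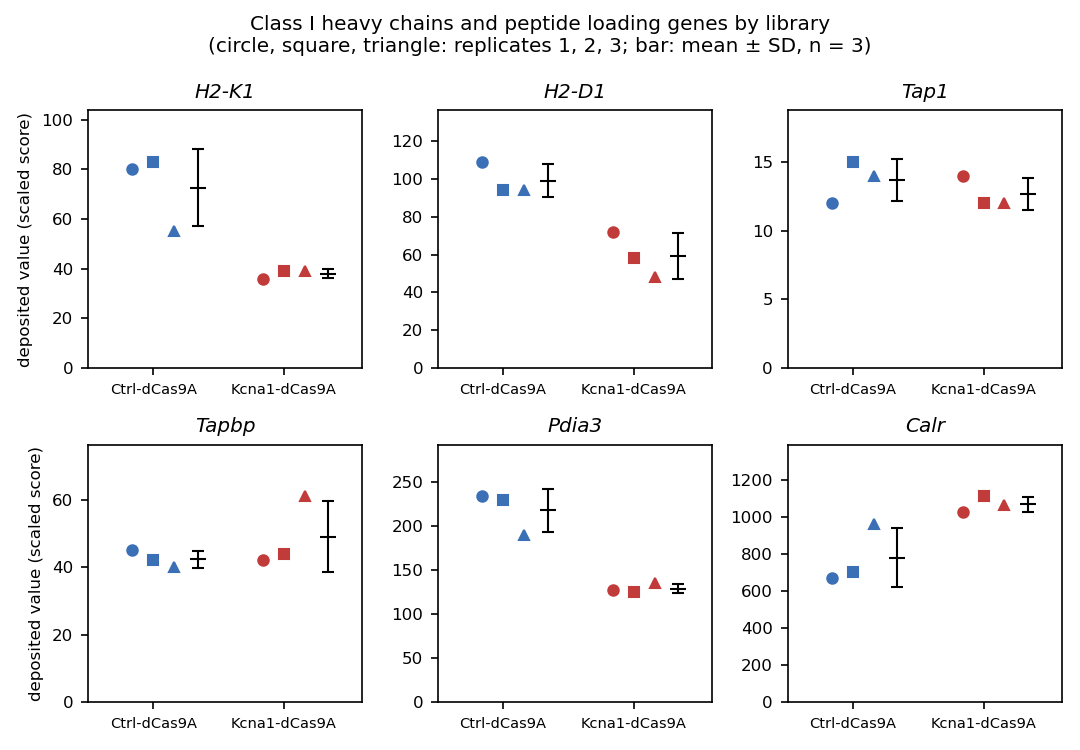
Scaled score of genes of class I antigen presentation in the 3 Ctrl-dCas9A and 3 Kcna1-dCas9A libraries (points), with the mean (line) and SD (bar) of each group; each panel has its own linear axis from 0. *H2-K1*, *H2-D1* and *Pdia3* are lower in every Kcna1-dCas9A library, *Calr* is higher, and *Tap1* and *Tapbp* overlap.

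Upstream of the 9 genes, the ligands were not seen and the receptors were. All 9 interferon genes in the list, of the alpha, beta, kappa, epsilon, gamma and lambda kinds, were listed at 0 in every library, as was the lambda receptor *Ifnlr1*. Of the 5 tested genes of this list, 0 passed in either direction, against 1.16% of all genes, and 1 had an unadjusted limma p under 0.05, against 23.2%. The median log2 fold change was -0.47. *Ifnar1*, a chain of the type I receptor, was 9, 12 and 10 in Ctrl-dCas9A and 8, 7 and 7 in Kcna1-dCas9A (limma adjusted p = 0.216), without overlap. *Ifngr2*, a chain of the gamma receptor, was 31, 40 and 33 against 24, 24 and 26, also without overlap, in an order that 13.3% of all genes had (log2 fold change -0.47, SE 0.14, limma adjusted p = 0.0986).

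Of 19 sensors and adaptors, 14 were tested, 0 passed in either direction, against 1.16% of all genes, and 0 had an unadjusted limma p under 0.05, against 23.2%. The median log2 fold change was -0.14, but -0.25 without Kcna1-dCas9A replicate 1 and -0.02 without Kcna1-dCas9A replicate 2. For the 2 genes of the list with a mean of at least 10 it was 0.09. The endosomal sensors *Tlr7* and *Tlr9* were listed at 0. *Tbk1*, the kinase that activates IRF3 below several sensors, was 9, 8 and 9 in Ctrl-dCas9A and 11, 12 and 11 in Kcna1-dCas9A, the 1 gene of the list whose groups did not overlap, against 22.2% of all genes (limma adjusted p = 0.246). *Eif2ak2*, which encodes the double-stranded RNA kinase PKR, was 14, 11 and 11 against 14, 9 and 9, and *Ddx58*, which encodes the RNA sensor RIG-I, was 5, 4 and 4 against 4, 4 and 3.

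Among the 18 genes of the JAK, STAT and IRF families with their regulators, *Irf9*, *Irf7* and *Stat2* included, 0 passed limma's test. Of the 18, 3, all lower, had an unadjusted p under 0.05, against 23.2% of all genes. Their median log2 fold change over the 18 was -0.14, but -0.03 without Ctrl-dCas9A replicate 1 and -0.19 without Ctrl-dCas9A replicate 3. *Jak1*, the kinase shared by all interferon receptors, was the most abundant at 165, 169 and 148 in Ctrl-dCas9A and 156, 148 and 151 in Kcna1-dCas9A, with overlap. *Irf1*, a factor induced by interferon gamma that also acts on class I promoters, was 14, 11 and 9 in Ctrl-dCas9A and 5, 3 and 6 in Kcna1-dCas9A. It had no overlap and a log2 fold change of -1.14 (SE 0.28, limma adjusted p = 0.0672). *Socs1*, a feedback inhibitor of JAK kinases, was 6, 5 and 1 against 0, 1 and 1 (limma adjusted p = 0.164), and *Tyk2* was 7 in all 3 libraries against 10, 10 and 8 (limma adjusted p = 0.268).

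In a wider list of 86 interferon-stimulated genes, which holds members described above, 71 were above 0 in at least 1 library and 0 passed in either direction. At an unadjusted p under 0.05 there were 5 higher and 6 lower of the 71, against 23.2% of all genes tested. The median log2 fold change was -0.13, but 0.0044 without Ctrl-dCas9A replicate 1, -0.05 without Kcna1-dCas9A replicate 2 and -0.07 among genes with a mean of at least 10. Levels were low: 35 of the 86 had a mean under 1, among them *Mx1*, *Oas1a* and *Oas3*, listed at 0 throughout, and 15 had a mean of at least 10. The summed value of the list was 683, 602 and 595 in Ctrl-dCas9A and 683, 593 and 668 in Kcna1-dCas9A.

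The groups did not overlap for 5 higher and 4 lower of the 71, where 8.98% and 13.3% of all tested genes did so. The most abundant gene of this list to stand apart was *Shisa5*, which encodes an endoplasmic reticulum protein linked to p53-dependent cell death. It was 98, 101 and 100 in Ctrl-dCas9A and 147, 125 and 163 in Kcna1-dCas9A (log2 fold change 0.53, SE 0.12, limma adjusted p = 0.0556). *Parp9*, an ADP-ribosyltransferase family member, was 7, 4 and 5 against 8, 10 and 11 (limma adjusted p = 0.118). *Tdrd7*, a Tudor domain protein, was 10, 6 and 10 against 5, 6 and 4 (limma adjusted p = 0.183). *Adar*, which edits double-stranded RNA, was 62, 64 and 63 against 54, 68 and 44, and *Oasl2* was 27, 28 and 21 against 36, 30 and 24, both with overlap.

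Markers of other cells than neurons were also present, and the summed levels of some of these lists differed between the groups. The neuron markers were abundant, summing to 4906, 4966 and 5678 in Ctrl-dCas9A and 6753, 5999 and 7451 in Kcna1-dCas9A over 11 genes. Of these 0 passed limma's test, and at an unadjusted p under 0.05 there were 4 higher and 4 lower of the 11, against 23.2% of all genes. The order of the sums rested on *Tubb3*, a neuronal tubulin: without it the other 10 genes summed to 3044, 3214 and 3073 in Ctrl-dCas9A and 2898, 2778 and 2860 in Kcna1-dCas9A, lower in every library. The 10 astrocyte markers summed to 1045, 1012 and 942 in Ctrl-dCas9A and 706, 692 and 709 in Kcna1-dCas9A, and 3 of the 9 tested fell, *Aqp4*, *Sox9* and *Aldoc*, against 0.81% of all genes. Without the intensity trend 1 of the 9 passed and with the replicate block 0. Other markers of the list did not separate the groups: *Gfap*, an intermediate filament, was 63, 45 and 57 against 46, 48 and 70, and *Aldh1l1* was 11, 12 and 5 against 6, 11 and 10. *Aqp4*, the water channel of astrocyte endfeet, was 53, 54 and 39 against 18, 17 and 17 (limma adjusted p = 0.0486). The 9 oligodendrocyte lineage markers summed to 104, 95 and 72 against 51, 47 and 49, and 1 of the 8 tested, *Olig2*, fell, against 0.81% of all genes. Its call was lost without the intensity trend (limma adjusted p = 0.0602) and with the replicate block (0.113). Not all of that list went one way: *Olig1* was 59, 49 and 34 against 20, 24 and 15 (limma adjusted p = 0.0556), while *Mbp*, a myelin gene, was 3, 3 and 2 against 7, 4 and 7 (limma adjusted p = 0.113).

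The 18 microglia markers went the other way, summing to 45, 34 and 46 in Ctrl-dCas9A and 90, 75 and 106 in Kcna1-dCas9A. Of the 15 tested, 1 rose, against 0.349% of all genes: *C1qa*, a complement gene, was 9, 6 and 6 against 23, 22 and 24 (limma adjusted p = 0.0486). The call of *C1qa* was lost with the replicate block (limma adjusted p = 0.111), and it passed in 6 of 12 alternative settings. *Cx3cr1*, the fractalkine receptor, was 3, 3 and 2 against 11, 6 and 10 (limma adjusted p = 0.0556). The microglia genes *P2ry12*, *Tmem119* and *Siglech* were listed at 0 in every library. The 12 vascular and meningeal markers summed to 24, 22 and 18 against 19, 9 and 17, with 0 passing and 0 at an unadjusted limma p under 0.05. In these bulk samples fewer cells of a type and less RNA per cell cannot be told apart. The part of these cells in the values of *Isg15*, *B2m*, *H2-K1* and *H2-D1* was not tested.

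**Figure D5:**
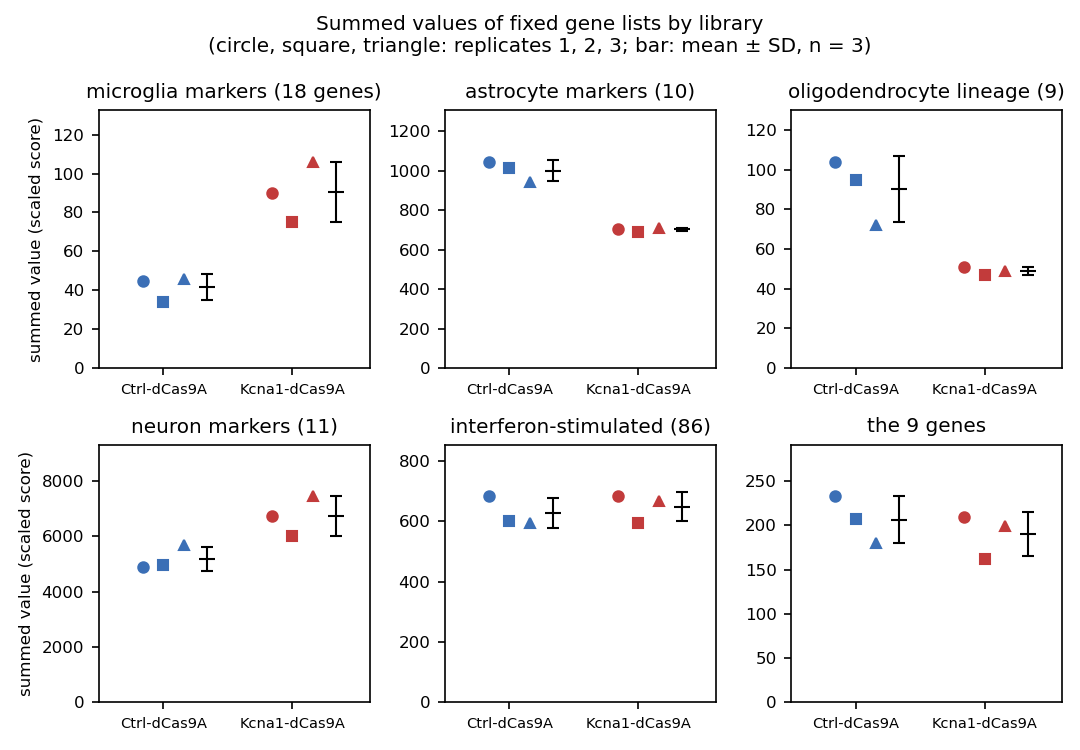
Summed scaled score of each list of genes in the 3 Ctrl-dCas9A and 3 Kcna1-dCas9A libraries (points), with the mean (line) and SD (bar) of each group; each panel has its own linear axis from 0. The astrocyte and oligodendrocyte lineage sums are lower and the microglia and neuron sums higher in every Kcna1-dCas9A library (the neuron sum is lower without *Tubb3*), while the sum over the 9 genes and the sum over the 86 interferon-stimulated genes overlap.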

How the data were processed

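The files deposited by the authors give 1 score per gene symbol and library, a whole number whose totals are nearly equal between libraries and which was read as scaled to a common total and rounded. The scaling, the annotation and the reads per library are not given in the sources used here. The study's methods name Bowtie2 on NCBI37/mm9, and the submitters' processing notes list STAR 2.7, featureCounts, DESeq2 and mm10 without a role. Groups and replicate numbers come from the labels.

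Values were tested as log2(value + 1) with limma 3.58.1 in R 4.3.3 (lmFit, then eBayes with an intensity trend, two-sided), with group as the only factor. The fit covered 19504 genes above 0 in at least 1 library, with Benjamini-Hochberg adjustment over all of them and a threshold of 0.05. The planned test of counts was replaced by this fit, since the values are not counts. The fit was also run on simulated data, and no outcome of that run is given here.

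The 9 genes and the lists were chosen with earlier results of these data known. Genes named are the 9, *Kcna1* and, from each list, those past the threshold and some of the 4 highest means and the 2 largest fold changes in each direction among means of at least 5. Which of these are shown, and others named for their role or for groups that did not overlap, were chosen after their values were seen. Promoter sequences are from RefSeq GRCm38.p6, which held all 9 genes. Shared transcript ends and overlapping genes were read from GENCODE vM1. Values between genes were not divided by length, since 3′ end libraries give about 1 read site per transcript. Alternatives were another pseudocount, filters on low means, median-of-ratios scaling, no trend, a replicate block and each library left out. Other lists were antiviral restriction, MHC class II and NF-κB genes and markers of neurons, astrocytes, the oligodendrocyte lineage, microglia, and vascular and meningeal cells. One result is not reported here.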

Additional observations from a re-analysis of the deposited data

How the results depend on the processing

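The test across genes depended strongly on the settings, the 9 genes less so. Against 226 genes passing (68 higher, 158 lower), 627 passed with a pseudocount of 0.1, 1543 (568 higher, 975 lower) with genes of a mean of at least 1, 1721 (963 higher, 758 lower) after median-of-ratios scaling, 2289 with genes of a mean of at least 10 (chosen after seeing the data) and 0 with a replicate block. Leaving out 1 library gave 0 to 2711, with 2711 without Ctrl-dCas9A replicate 3 and 0 without any other. The cause was not tested.

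Of the 9 genes, 0 passed in every setting other than the mean of at least 10. There 6 of the 9 were tested and 2 passed, *Isg15* and *B2m*, where 28.4% of all genes tested passed. The interferon-stimulated list gave 0 of 71. It gave 2 with a pseudocount of 0.1, 1 of 51 with a mean of at least 1 and 2 after median-of-ratios scaling. It gave 2 without the intensity trend, 2 of 15 with a mean of at least 10 and 0 to 4 with a library left out. The class I list gave 1 of 22. It gave 3 with a pseudocount of 0.1, 3 of 16 with a mean of at least 1 and 4 after scaling. With a mean of at least 10 it gave 5 of 11, with the block 0 and with a library left out 0 to 4. The microglia markers gave 1 of 15. They gave 5 of 13 with a mean of at least 1, 5 after scaling and 2 of 2 with a mean of at least 10. With the block they gave 0, and with a library left out 0 to 3. In these lists the 4, 4 and 3 came without Ctrl-dCas9A replicate 3. These counts stand beside the numbers of all genes passing under each setting, given above, and 201 without the intensity trend.

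With 1 library left out, the log2 fold change ran from -0.63 to 0.17 for *Ifit3*, from -0.16 to 0.42 for *Irf7*, from -0.053 to 0.45 for *Bst2* and from -0.12 to 0.22 for *Ifitm3*, so these 4 changed sign. The other alternatives that gave a value kept the direction; *Ifit3* had none with a mean of at least 1, nor *Ifit1*, *Ifit3* and *Irf7* with a mean of at least 10. *Isg15* ran from -0.86 to -0.50 and *B2m* from -0.85 to -0.40 over all alternatives, with adjusted p of 0.0377 to 0.375 and 0.0467 to 0.444.

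The replicate numbers were not taken to pair the libraries: over 8050 genes, deviations of same-numbered libraries correlated at 0.0143, 0.114 and 0.154, so not all passed 0.1, although 5 of the 6 libraries correlated best with their own number (Ctrl-dCas9A replicate 1 did not). This is a hint from the data, not the design. *Ifit1* and *Ifit3* were at 4 or less in rounded values whose depth is unknown, so a small difference could not be read from them.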

Other observations

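Genes that restrict retroviruses and lentiviral vectors, from the TRIM, APOBEC, SERINC and silencing families, ranged widely in level, with 9 of 18 at a mean of at least 10 and *Trim12a* listed at 0. Of the 18, 17 were tested, 0 passed limma's test and 2 lower genes had an unadjusted p under 0.05 against 23.2% of all genes. The median log2 fold change was -0.11, but -0.02 without Kcna1-dCas9A replicate 2 and -0.18 without Kcna1-dCas9A replicate 3. The groups did not overlap for 3 lower genes and 0 higher genes, against 13.3% and 8.98% of all genes. The most abundant were *Trim28*, the corepressor that silences retroelements, at 147, 138 and 113 in Ctrl-dCas9A and 124, 109 and 136 in Kcna1-dCas9A, and *Mphosph8*, a subunit of the HUSH silencing complex, at 130, 113 and 126 against 117, 115 and 116, both with overlap. *Serinc3*, a membrane protein that lowers the infectivity of retroviral particles, was 112, 94 and 107 in Ctrl-dCas9A and 82, 84 and 88 in Kcna1-dCas9A (limma adjusted p = 0.140). *Samhd1*, which depletes the nucleotides needed for reverse transcription, was 14, 10 and 11 against 15, 11 and 15 (limma adjusted p = 0.513).

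Of 17 NF-κB and inflammatory genes, 13 were tested and 0 passed limma's test, with 1 higher and 4 lower at an unadjusted p under 0.05 against 23.2% of all genes, and *Tnf*, *Il1b* and *Il6* were listed at 0 in every library. Their summed value was 209, 168 and 147 in Ctrl-dCas9A and 104, 125 and 100 in Kcna1-dCas9A, without overlap. Most of that sum was *Nfkbia* and *Vcam1*: the other 15 genes summed to 14, 10 and 9 against 9, 11 and 12, with overlap. The median log2 fold change of the 13 tested was 0, but -0.61 for the 5 with a mean of at least 1. It was 0.17 without Ctrl-dCas9A replicate 1 and -0.33 without Kcna1-dCas9A replicate 2. *Nfkbia*, the inhibitor that NF-κB induces, was 114, 92 and 83 against 63, 73 and 52 (log2 fold change -0.61, limma adjusted p = 0.0849). *Vcam1*, an adhesion molecule, was 81, 66 and 55 against 32, 41 and 36 (log2 fold change -0.86, limma adjusted p = 0.0550). The astrocyte markers given above were lower in the same libraries, and their part in these values was not tested. The 7 class II MHC genes summed to 9, 10 and 10 against 7, 12 and 11, with 0 passing and 0 at an unadjusted limma p under 0.05.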
